A study of Mus musculus with 12 samples.

Results

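The genes described here encode subunits of RNA polymerases I, II and III and the general transcription factors that place these enzymes at promoters. They were chosen by symbol alone, as every gene of the count table whose symbol begins with Polr1, Polr2, Polr3, Gtf2, Gtf3 or Taf and a digit, with Taf4b left out. This gave 73 of the 24562 genes in the table. By the enzyme they serve, 7 belong to polymerase I (Pol I), 42 to polymerase II (Pol II) and 17 to polymerase III (Pol III), and 7 are subunits shared between enzymes. RNA-Seq was performed on 12 pools of oocytes from CD-1 mice, 3 pools in each of 4 cohorts defined by postnatal day (PND), and no cohort carried a genetic change or a treatment. PND 13 and PND 16 small oocytes lack meiotic competence, which takes in both resuming meiosis and going on to metaphase II, and are called non-competent, whereas PND 16 large and PND 40 oocytes are called competent. Small and large refer to the body weight of the PND 16 mice, so a cohort describes the animals and not the diameter of each oocyte, and a pool is a mixture of oocytes. Total counts ranged from 17671193 to 27418358 per pool.

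Pol I transcribes the large ribosomal RNA precursor, Pol II transcribes messenger RNAs, and Pol III transcribes tRNAs, the 5S ribosomal RNA and other short RNAs. Each enzyme is built around a pair of large catalytic subunits, shares several small subunits with the others, and is brought to its promoters by its own factors: SL1 for Pol I, TFIIA to TFIIH with TFIID for Pol II, and TFIIIA, TFIIIB and TFIIIC for Pol III. A growing mouse oocyte transcribes actively and stores RNA, and transcription falls silent when it is fully grown. The counts measure mRNA of the transcription machinery and not its protein or its activity.

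Levels are given as CPM, in which each count is scaled to the TMM-adjusted total of its pool, and 3 values in a row are replicates 1, 2 and 3 of a cohort. A gene was called when edgeR's quasi-likelihood test gave an adjusted p of at most 0.05 (Benjamini-Hochberg, over the 13943 genes tested) with at least a 1.5-fold change. Differences are log2 fold changes ± SE, the first-named cohort relative to the second. Competence was assigned by cohort and goes with age and body weight, from which it cannot be told apart here. The spread in the competence comparison also holds differences between the cohorts of each group. All 12 markers of oocytes were detected in every cohort, and they summed to between 15708 and 20236 CPM per pool. The 16 markers of granulosa and cumulus cells summed to between 405 and 932 CPM, with the highest sums in PND 13 replicates 1 and 3 (755 and 871 CPM) and PND 16 small replicate 2 (932 CPM). Serpine2 (199, 270 and 227 CPM at PND 13) and Nr5a2 (143, 87.9 and 146 CPM) made up a large part of these sums. Single markers could differ far more between pools than the sum. Inha had 97.1, 2.34 and 143 CPM (PND 13) and 4.42, 130 and 16.5 CPM (PND 16 small), whereas Cyp19a1 lay between 12.7 and 24.3 CPM in all pools. Theca and stroma markers stayed at or below 32.7 CPM in sum, a maximum reached in PND 16 large replicate 2 (Col1a1 at 17.8 CPM). Blood and endothelium markers summed to between 52.2 and 64.6 CPM, nearly all of it Pecam1. In pooled cells, fewer cells of a type and less RNA per cell cannot be told apart, and CPM does not measure the amount of RNA per oocyte.

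The sequence upstream of the start site is shown for 5 of the 10 members called in competent vs. non-competent oocytes. These are Polr3e, Polr3g and Gtf3c4 of the Pol III machinery, and Gtf2i and Gtf2ird1, neighboring genes on chromosome 5 that were called in opposite directions. The competence calls of Gtf2i and Gtf2ird1 were lost without the 3 pools highest in granulosa markers, and Gtf2ird1 was high in PND 40 alone. The windows are the 250 bases before the start site from RefSeq (GRCm38.p6), written 5′ to 3′ in the direction of transcription. The table held a window for 64 of the 73 members. Capitals mark short motifs searched on both strands: the GC box GGGCGG, the CCAAT box, the ETS site CCGGAAG, the TATA box TATAAA, the E-box CACGTG, the cAMP response element TGACGTCA and the 11-base consensus of the B box. The B box is the internal promoter element of tRNA genes to which TFIIIC binds. No motif marked here overlaps another. The lines give Polr3e at chr7:120917528-120917777 (plus strand), Polr3g at chr13:81711014-81711263, Gtf3c4 at chr2:28840361-28840610, Gtf2i at chr5:134314761-134315010 and Gtf2ird1 at chr5:134456717-134456966 (minus strand for the last 4).
Polr3e: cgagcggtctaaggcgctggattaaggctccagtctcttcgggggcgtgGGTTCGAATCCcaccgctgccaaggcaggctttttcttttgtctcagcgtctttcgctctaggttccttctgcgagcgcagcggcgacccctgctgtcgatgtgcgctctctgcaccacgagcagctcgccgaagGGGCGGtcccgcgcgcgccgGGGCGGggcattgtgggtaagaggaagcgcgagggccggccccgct
Polr3g: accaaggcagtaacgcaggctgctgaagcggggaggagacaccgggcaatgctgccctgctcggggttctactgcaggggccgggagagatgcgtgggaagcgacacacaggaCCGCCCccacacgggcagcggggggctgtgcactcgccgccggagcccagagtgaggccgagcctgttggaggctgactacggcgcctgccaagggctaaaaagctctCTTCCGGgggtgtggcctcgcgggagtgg
Gtf3c4: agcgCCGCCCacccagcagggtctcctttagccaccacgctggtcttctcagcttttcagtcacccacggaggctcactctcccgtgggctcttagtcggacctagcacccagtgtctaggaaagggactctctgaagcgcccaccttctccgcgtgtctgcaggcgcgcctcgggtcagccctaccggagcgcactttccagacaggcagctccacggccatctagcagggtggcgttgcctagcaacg
Gtf2i: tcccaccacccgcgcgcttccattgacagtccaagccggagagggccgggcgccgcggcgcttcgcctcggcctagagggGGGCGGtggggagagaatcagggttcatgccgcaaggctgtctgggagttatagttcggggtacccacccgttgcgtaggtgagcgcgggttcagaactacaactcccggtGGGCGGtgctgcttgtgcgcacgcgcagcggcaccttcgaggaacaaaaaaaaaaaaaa
Gtf2ird1: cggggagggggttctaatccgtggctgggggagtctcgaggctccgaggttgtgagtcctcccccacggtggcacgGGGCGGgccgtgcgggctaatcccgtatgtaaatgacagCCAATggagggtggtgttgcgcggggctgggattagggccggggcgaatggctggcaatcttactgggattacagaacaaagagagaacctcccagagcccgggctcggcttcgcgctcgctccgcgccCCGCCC

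A tRNA gene lies in the upstream window of Polr3e, a subunit of the enzyme that transcribes tRNAs. The window held 2 GC boxes and a B box whose first base is at -201, counted from the start site with -1 as the last upstream base. The B box spans positions 120917577 to 120917587 of chromosome 7. RefSeq places there a tRNA gene for leucine, n-TLaag4, from 120917517 to 120917598, and 71 of its 82 bases lie in the window shown. Of 32851 such windows across all genes, 11 (0.0335%) held a B box and 8 (0.0244%) overlapped an annotated tRNA gene. Of the 76 windows of members, this was the 1 window with either. The B box and the tRNA annotation were looked up after the sequence had been seen. The other windows printed held GC boxes, with a CCAAT box in Gtf2ird1 and an ETS site in Polr3g, and none of the 5 held a TATA box. Among all windows of members, 55.3% held a GC box and 27.6% an ETS site, compared with 32.7% and 6.91% of all windows. The E-box was found in 19.7% compared with 6.02%, and the TATA box in 13.2% compared with 12.4%. The CCAAT box was found in 30.3% of member windows and 33.8% of all windows and the cAMP response element in 3.95% and 1.55%. The windows of all genes were not limited to genes detected in oocytes. The 76 member windows came from 64 members, so a gene with several start sites counts more than once. A match describes these letters and is not evidence of binding.

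Of the 73 members, 72 were tested. The remaining member, Taf7l, a TAF related to Taf7 and known from male germ cells, had a level of 0.239 CPM in PND 13 replicate 1 and 0 in the other 11 pools. In no pairwise comparison of cohorts was a call made for 54 of the 72, and 18 were called at least once, 8 of them higher and 10 lower in the first-named, older or heavier cohort, where 29.1% of all genes tested were called at least once (12% higher and 18.1% lower). None was called in both directions. By enzyme, the 18 were 1 of 7 Pol I genes, 2 of 7 shared subunits, 10 of 41 Pol II genes and 5 of 17 Pol III genes.

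In PND 40 vs. PND 13, 14 members were called, 5 higher and 9 lower, where 18.9% of all genes tested were called (6.31% higher and 12.6% lower). PND 16 large vs. PND 13 gave 9 members, 3 higher and 6 lower, beside 13.3% of all genes (3.52% higher and 9.8% lower). Of the 9 members called in PND 40 vs. PND 16 small, 4 were higher and 5 lower, beside 17.2% of all genes (6.89% and 10.3%). PND 16 large vs. PND 16 small gave 4 members, 1 higher and 3 lower, beside 6.19% (1.43% and 4.76%), and this count ranged from 2 to 7 as each pool was left out. It was 7 without PND 16 small replicate 2 and 2 without PND 16 large replicate 2. PND 40 vs. PND 16 large gave 1 member, Gtf2ird1, which was higher, beside 3.66% (2.34% and 1.32%). In PND 16 small vs. PND 13 no member was called by edgeR, beside 0.373% (0.179% and 0.194%), with 17 of the 72 members at an unadjusted p under 0.05 (19.2% of all genes) and 1 member called by DESeq2. Without PND 16 small replicate 1 this count was 4. Between competent and non-competent oocytes, 10 members were called, 3 higher and 7 lower, beside 15.0% of all genes (3.78% higher and 11.2% lower). As a share of the 72 tested, the members called, at 13.9% in this comparison, were close to that background, and in the pairwise comparisons it was 19.4% in PND 40 vs. PND 13 and at most 12.5% in the others. Without the fold criterion, an adjusted p of at most 0.05 was reached by 31 members (16 higher and 15 lower, beside 30.7% of all genes) in competent vs. non-competent oocytes. It was reached by 32 in PND 40 vs. PND 13 (beside 33.1%), 26 in PND 16 large vs. PND 13 (25.6%), 26 in PND 40 vs. PND 16 small (30.2%), 12 in PND 16 large vs. PND 16 small (12.3%), 5 in PND 40 vs. PND 16 large (6.83%) and 0 in PND 16 small vs. PND 13 (0.925%). The pairwise comparisons share cohorts with each other and with the competence comparison, so their counts are not independent.

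**Figure D1:**
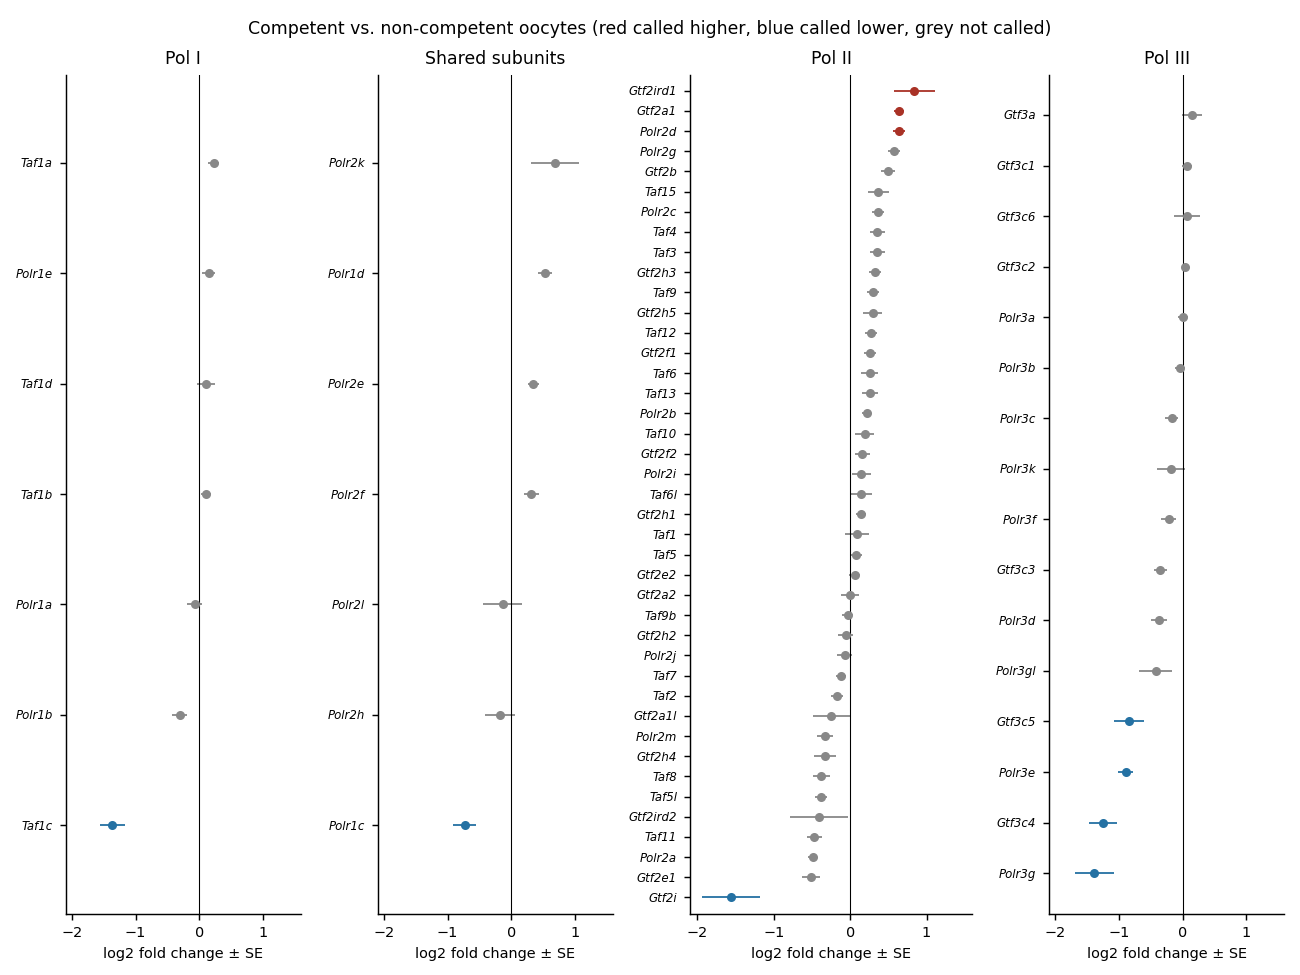
Log2 fold change of the members reported by name in competent vs. non-competent oocytes (x axis), 1 row per gene, in panels for Pol I, shared, Pol II and Pol III genes, with points for edgeR's estimate and bars for ± 1 SE. The 4 called Pol III genes all lie left of 0, 3 of the 4 called Pol II genes lie right of 0, and most genes lie within 0.5 of 0.

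The directions are given by enzyme. The median log2 fold change of Pol III genes in competent vs. non-competent oocytes was -0.22, with 12 of 17 below 0 and 4 called, all lower, beside 11.2% of all genes called lower and 3.78% called higher. Pol II genes had a median of 0.15, with 26 of 41 above 0, 3 called higher and 1 lower. The median was 0.10 over the 7 Pol I genes and 0.31 over the 7 shared subunits, and it was -0.0046 over all genes tested. Of the 7 Pol I genes, 4 are TAFs of SL1. The symbol rule does not reach 3 further Pol I subunits, which had a median of -0.96 with 2 called lower. Pol III medians were below 0 in each of the 6 pairwise comparisons as well, from -0.36 in PND 40 vs. PND 16 small to -0.12 in PND 16 small vs. PND 13, under TMM, RLE and total-count scaling alike. The Pol II median was above 0 in each pairwise comparison under TMM, although it was 0.0059 in PND 40 vs. PND 16 large, where RLE scaling gave -0.0066, and 0.017 in PND 16 small vs. PND 13, where total counts gave -0.079. The comparisons share pools, and the difference between the enzymes was not tested.

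Per kilobase of exon, the levels of the members tested ranged from 0.236 to 132 CPM per kb. Highest by this measure were Polr2d (132 CPM per kb) among Pol II genes, Taf1a (92.3 CPM per kb), a TAF of SL1, among Pol I genes, Polr3a (77.7 CPM per kb), the largest subunit, among Pol III genes, and Polr1d (12.1 CPM per kb) among shared subunits. Lowest of those tested were Gtf2ird2 (0.236 CPM per kb), Polr2l (0.797 CPM per kb), Polr3g (0.902 CPM per kb) and Taf1d (1.06 CPM per kb). The largest subunit of Pol III thus had a higher level per kilobase than that of Pol II (Polr2a, 15.1 CPM per kb) or of Pol I (Polr1a, 12 CPM per kb). These means over the 12 pools use all exons of a gene in the GENCODE M21 annotation, which need not be the exons transcribed in oocytes.

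**Figure D2:**
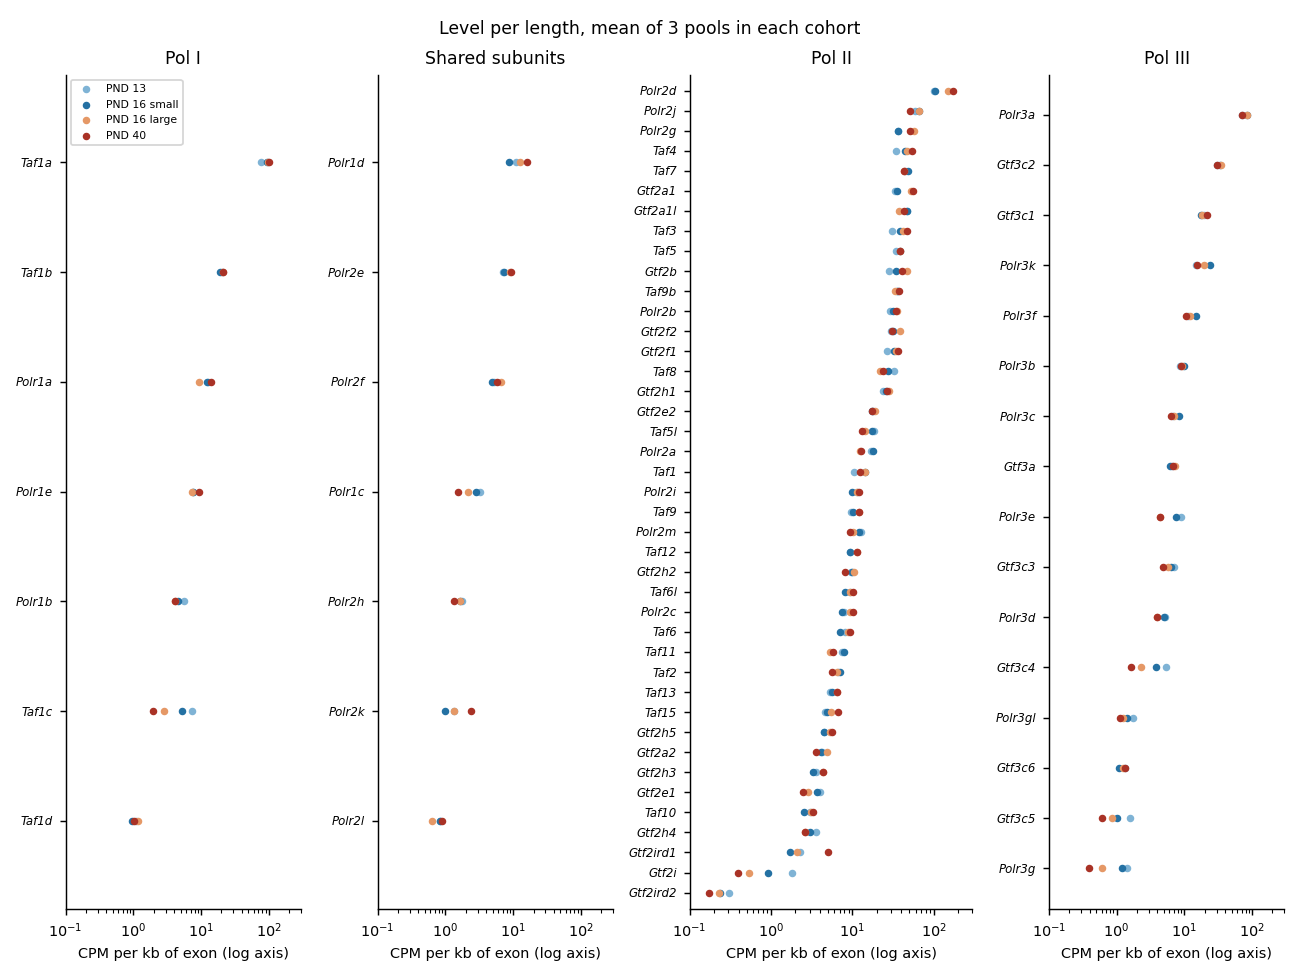
Level of the members reported by name, in CPM per kilobase of exon on a log axis, 1 row per gene and 1 point per cohort (mean of 3 pools), in panels by enzyme. The 4 points of most genes lie close together, and the points of Gtf3c4, Taf1c, Polr3g, Gtf2i and Gtf2ird1 are spread apart.

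For the catalytic subunits of the 3 enzymes, no call was made in any comparison. Polr1a, the largest subunit of Pol I, stood at 149, 130.2 and 166 CPM (PND 13), 150.5, 138 and 141 CPM (PND 16 small), 111, 109 and 116 CPM (PND 16 large) and 165, 168 and 161 CPM (PND 40). Its level was lowest in all 3 PND 16 large pools, and the pools of PND 16 large and PND 40 did not overlap, with a log2 difference of 0.56 ± 0.083 (adjusted p = 0.00247), short of 1.5-fold. Polr1b, the second-largest subunit, had 33.3, 30.9 and 34.8 CPM at PND 13 and 23.7, 22.7 and 24.7 CPM at PND 40, a difference of -0.47 ± 0.15 (adjusted p = 0.0308). Polr2a, the largest subunit of Pol II and carrier of the C-terminal domain that couples transcription to RNA processing, stood at 115, 122 and 126 CPM (PND 13), 123, 118 and 144 CPM (PND 16 small), 85.2, 87.5 and 89.5 CPM (PND 16 large) and 91.8, 85.0 and 92.6 CPM (PND 40). All 6 competent pools were below all 6 non-competent pools, and the difference of -0.49 ± 0.062 (adjusted p = 9.17e-05) was 1.41-fold. Polr2b, its partner in the catalytic center, was higher in all 6 competent pools, at 165 ± 7.75 CPM (SD, n = 6) compared with 142 ± 7.79 CPM (n = 6), a difference of 0.22 ± 0.056 (adjusted p = 0.00975). Polr3a, the largest subunit of Pol III, stood at 421, 431 and 395 CPM (PND 13), 473, 495 and 498 CPM (PND 16 small), 493, 479 and 489 CPM (PND 16 large) and 404, 426 and 432 CPM (PND 40). The PND 16 pools, small and large, were above the PND 13 and PND 40 pools without overlap, so that competent and non-competent oocytes differed by only 0.0050 ± 0.074, a value that turned negative under total-count scaling (-0.026). Polr3b, the second-largest subunit of Pol III, ranged from 42.8 to 54.6 CPM over the 12 pools, with a competence difference of -0.033 ± 0.078 (adjusted p = 0.779).

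**Figure D3:**
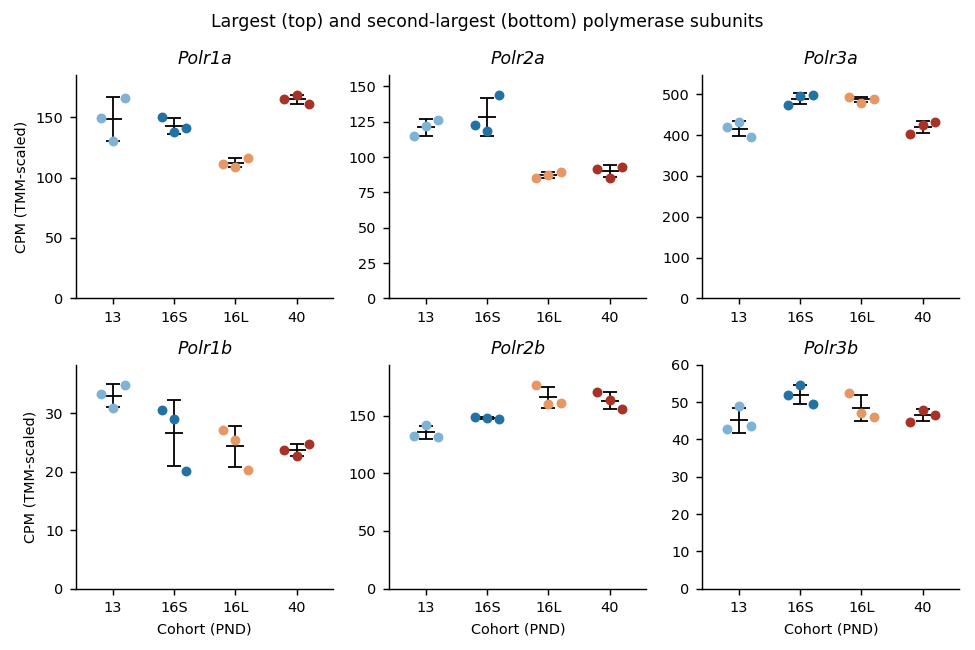
CPM of the largest (top row) and second-largest (bottom row) subunits of Pol I, Pol II and Pol III in each pool, by cohort (16S and 16L, PND 16 small and large). Points are pools, and bars show the mean ± SD of 3 pools, with axes starting at 0. Polr2a was lower in all competent pools, Polr1a was lowest in PND 16 large, and Polr3a was highest at PND 16.

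Among the Pol I members, 1 gene was called. Taf1c encodes a TAF of SL1, the TBP-containing complex that selects ribosomal DNA promoters. Its level was 26.0, 25.0 and 24.7 CPM (PND 13), 25.1, 14.7 and 14.1 CPM (PND 16 small), 9.49, 9.90 and 10.7 CPM (PND 16 large) and 5.79, 7.61 and 6.76 CPM (PND 40). The 6 competent pools were all below the 6 non-competent pools, and PND 16 small replicate 1 stood with the PND 13 pools and apart from the other PND 16 small pools. The difference was -1.37 ± 0.20 (adjusted p = 0.000229) in competent vs. non-competent oocytes and -1.91 ± 0.20 (adjusted p = 4.40e-05) in PND 40 vs. PND 13. In PND 16 large vs. PND 16 small it was -0.84 ± 0.20 (adjusted p = 0.0173), and this call was lost without PND 16 small replicate 1 (difference -0.52), without PND 16 large replicate 1 or 2, and when only these cohorts were modeled. Exons of Taf1c overlap those of Dnaaf1 on the opposite strand over 13.8% of their length, and whether counting used strand is not stated.

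The partners of Taf1c in SL1 were not called in any comparison. Taf1a had 196, 179 and 173 CPM at PND 13 and 254, 246 and 236 CPM at PND 40, a difference of 0.43 ± 0.086 (adjusted p = 0.00215) without overlap of the pools and in the opposite direction to Taf1c. Taf1b, the TFIIB-related TAF, differed by 0.10 ± 0.077 (adjusted p = 0.334) between competent and non-competent oocytes, and Taf1d, the small TAF, by 0.10 ± 0.14 (adjusted p = 0.615). Polr1e, the remaining Pol I subunit among the members, differed by 0.14 ± 0.11 (adjusted p = 0.330). Twistnb, Cd3eap and Znrd1, Pol I subunits that the symbol rule does not reach, are given with the partners below. Summed over the 7 Pol I genes, the level was 481 ± 16.8 CPM (PND 13), 502 ± 4.96 CPM (PND 16 small), 475 ± 1.59 CPM (PND 16 large) and 541 ± 8.54 CPM (PND 40), each with SD and n = 3. Taf1a and Polr1a hold most of this sum.

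Polr1c and Polr1d, which form a heterodimer in the assembly platform of both Pol I and Pol III, changed in opposite directions. Polr1c stood at 5.97, 8.71 and 7.78 CPM (PND 13), 7.53, 6.02 and 5.87 CPM (PND 16 small), 4.46, 5.09 and 5.02 CPM (PND 16 large) and 4.03, 3.90 and 2.68 CPM (PND 40). Every competent pool was below every non-competent pool, with a difference of -0.73 ± 0.19 (adjusted p = 0.00814), and in PND 40 vs. PND 13 the difference was -1.08 ± 0.23 (adjusted p = 0.00332). Without the 3 pools highest in granulosa markers, the competence call of either Polr1c or Gtf3c5 was lost, and the stability of each is not given. Polr1d stood at 33.5, 35.9 and 30.5 CPM (PND 13), 29.0, 25.9 and 25.7 CPM (PND 16 small), 38.2, 41.0 and 37.2 CPM (PND 16 large) and 51.0, 45.4 and 48.8 CPM (PND 40). Here every competent pool was above every non-competent pool, and the call was made in PND 40 vs. PND 16 small, at 0.85 ± 0.10 (adjusted p = 0.000120), whereas the competence difference of 0.53 ± 0.11 (adjusted p = 0.00226) was short of 1.5-fold. The Polr1d difference in PND 40 vs. PND 16 small stayed between 0.81 and 0.91 under all settings.

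Among the 5 subunits shared by all 3 polymerases, none was called. Polr2e passed the adjusted p alone, at 0.34 ± 0.090 (adjusted p = 0.00994) in competent vs. non-competent oocytes, and Polr2f was close to it at 0.31 ± 0.12 (adjusted p = 0.0523). Polr2h, Polr2k and Polr2l had low levels, with no pool above 3.24 CPM, and their differences were -0.18 ± 0.24 (adjusted p = 0.602), 0.68 ± 0.38 (adjusted p = 0.189) and -0.14 ± 0.31 (adjusted p = 0.766). The precision of these 3 genes is limited by their counts.

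Of the 8 members called higher in a pairwise comparison, 7 were Pol II genes, and they included the stalk of the enzyme and factors of the first steps of promoter assembly. Polr2d and Polr2g encode the RPB4 and RPB7 subunits, which form the stalk through which the nascent RNA leaves. Polr2d stood at 105, 111 and 95.5 CPM (PND 13), 114, 110.3 and 91.1 CPM (PND 16 small), 153, 157 and 142 CPM (PND 16 large) and 177, 179.5 and 165 CPM (PND 40). The competent and non-competent pools did not overlap, with a difference of 0.64 ± 0.076 (adjusted p = 6.15e-05), and this call held under every setting. Polr2g stood at 46.7, 44.0 and 46.1 CPM (PND 13), 52.0, 46.2 and 37.4 CPM (PND 16 small), 71.3, 73.0 and 68.1 CPM (PND 16 large) and 68.6, 59.7 and 64.5 CPM (PND 40). Its pools were apart in the same way, and the call was made in PND 16 large vs. PND 16 small (0.65 ± 0.11 (adjusted p = 0.00374)) and in PND 16 large vs. PND 13 (0.64 ± 0.11 (adjusted p = 0.00165)). The first of these was lost without PND 16 small replicate 3 and the second under total-count scaling, and the competence difference of 0.57 ± 0.083 (adjusted p = 0.000221) passed the adjusted p alone. Of the other Pol II subunits, Polr2c differed by 0.36 ± 0.078 (adjusted p = 0.00306), Polr2i by 0.15 ± 0.13 (adjusted p = 0.405), Polr2j by -0.073 ± 0.10 (adjusted p = 0.614) and the Pol II associated Polr2m by -0.33 ± 0.10 (adjusted p = 0.0258). None of these 4 reached 1.5-fold.

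Gtf2a1, the precursor of the large TFIIA subunits that steady TBP on the promoter, stood at 237, 201 and 195 CPM (PND 13), 201, 242 and 227 CPM (PND 16 small), 344, 329 and 319 CPM (PND 16 large) and 358, 351 and 334 CPM (PND 40). The competent and non-competent pools did not overlap. The difference was 0.64 ± 0.065 (adjusted p = 2.57e-05) in competent vs. non-competent oocytes, and this call was kept under every setting and without each pool. Gtf2a1l, its paralogue known from germ cells, had 94.5, 86.8 and 88.6 CPM (PND 13), 95.3, 98.4 and 73.6 CPM (PND 16 small), 49.7, 109.7 and 50.5 CPM (PND 16 large) and 103, 101 and 39.8 CPM (PND 40). In this gene 3 of the 6 competent pools (PND 16 large replicates 1 and 3 and PND 40 replicate 3) lay between 39.8 and 50.5 CPM, below all other pools, whereas the other 3 lay between 101 and 109.7 CPM, above all non-competent pools. The difference between groups was -0.24 ± 0.24 (adjusted p = 0.469). Gtf2a2, the small TFIIA subunit, differed by -0.26 ± 0.13 (adjusted p = 0.131) in PND 40 vs. PND 13.

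Gtf2b, which bridges TBP and the polymerase, stood at 144, 129.6 and 113 CPM (PND 13), 144, 182 and 149 CPM (PND 16 small), 215, 211 and 219 CPM (PND 16 large) and 200.0, 188 and 181 CPM (PND 40). The call was made in PND 16 large vs. PND 13, at 0.74 ± 0.10 (adjusted p = 0.000445), and held under every setting. Its pools of PND 16 small reached 182 CPM, above the lowest PND 40 pool, and the competence difference was 0.49 ± 0.10 (adjusted p = 0.00160), below 1.5-fold. TFIIE went the other way in its large subunit: Gtf2e1 had 30.1, 22.6 and 22.0 CPM at PND 13 and 15.1, 14.3 and 17.3 CPM at PND 40, a called difference of -0.68 ± 0.16 (adjusted p = 0.00554), whereas Gtf2e2, the small subunit, differed by -0.043 ± 0.092 (adjusted p = 0.756). Both TFIIF subunits were uncalled, with competence differences of 0.26 ± 0.084 (adjusted p = 0.0296) for Gtf2f1 and 0.16 ± 0.094 (adjusted p = 0.215) for Gtf2f2. Of the 5 core subunits of TFIIH, which opens the DNA and also serves in repair, none was called, and their competence differences ran from -0.33 (Gtf2h4) to 0.33 (Gtf2h3, adjusted p = 0.00532).

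**Figure D4:**
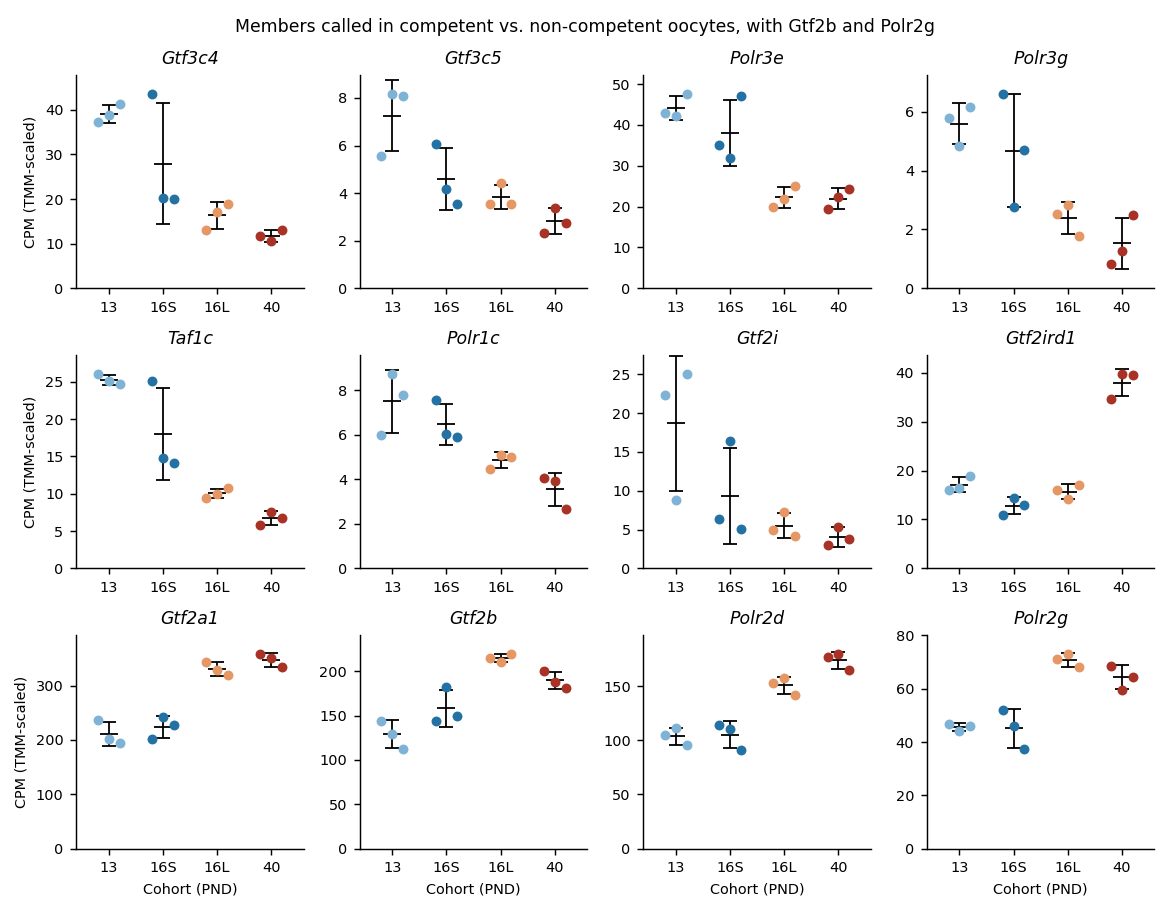
CPM in each pool for the 10 members called in competent vs. non-competent oocytes and for Gtf2b and Polr2g, by cohort (16S and 16L, PND 16 small and large). Points are pools, bars show the mean ± SD of 3 pools, and each axis starts at 0. Gtf3c4 and Taf1c have 1 PND 16 small pool level with PND 13, Gtf2ird1 is high in PND 40 alone, and Gtf2i spreads widely within PND 13 and PND 16 small.

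TFIID, the TBP complex that recognizes core promoters, and the related SAGA coactivator were represented by 17 tested TAFs, of which 11 were above 0 and 6 below 0 in competent vs. non-competent oocytes with none called. Without the fold criterion, 5 were higher and 3 lower. Taf4, a scaffold of TFIID, rose from 156, 165 and 162 CPM at PND 13 to 246, 243 and 259 CPM at PND 40, a difference of 0.63 ± 0.081 (adjusted p = 0.000106). Taf3, whose PHD finger reads histone H3 trimethylated on lysine 4, rose from 199.9, 205 and 179.5 CPM to 301, 292 and 315 CPM, a difference of 0.64 ± 0.085 (adjusted p = 0.000138). For both genes the PND 13 pools were below every pool of the other cohorts, with the nearest pool, in PND 16 small, at 176 CPM for Taf4 and 227 CPM for Taf3. Taf11, a histone-fold TAF, had 44.1, 37.2 and 49.5 CPM in PND 16 small and 29.8, 25.3 and 32.0 CPM in PND 16 large, a difference of -0.59 ± 0.13 (adjusted p = 0.0107), just at 1.5-fold. That call was lost under 9 of 14 settings, 3 of them without a single pool. Its partner Taf13 differed by 0.26 ± 0.10 (adjusted p = 0.0704) between competent and non-competent oocytes, and Taf11 by -0.47 ± 0.093 (adjusted p = 0.00189).

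Of the paralogue pairs, Taf7 was at 155 ± 14.6 CPM in non-competent and 143 ± 4.49 CPM in competent oocytes (SD, n = 6), a difference of -0.12 ± 0.064 (adjusted p = 0.188), while Taf7l was not detected outside 1 pool. Taf9 differed by 0.30 ± 0.082 (adjusted p = 0.0126) and Taf9b by -0.031 ± 0.070 (adjusted p = 0.768). Reads of Taf9 may include those of Ak6, which shares 52.8% of its exonic length on the same strand. The remaining TAFs (Taf1, Taf2, Taf5, Taf6, Taf8, Taf10, Taf12, Taf15 and the SAGA forms Taf5l and Taf6l) had competence differences between -0.39 (Taf5l, adjusted p = 0.00215) and 0.37 (Taf15, adjusted p = 0.0456).

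The TFII-I family gave the largest changes of the Pol II genes in either direction, from neighboring genes. Gtf2i spans 134237834 to 134314760 and Gtf2ird1 134357656 to 134456716 of mouse chromosome 5, both on the minus strand (GENCODE M21, GRCm38). They encode related sequence-specific regulators rather than parts of the core machinery. Gtf2ird1 stood at 16.1, 16.4 and 19.0 CPM (PND 13), 11.0, 14.5 and 13.0 CPM (PND 16 small), 16.0, 14.1 and 17.0 CPM (PND 16 large) and 34.7, 39.7 and 39.5 CPM (PND 40). All 3 PND 40 pools were more than 1.5 times as high as any other pool. The difference was 1.27 ± 0.13 (adjusted p = 0.000267) in PND 40 vs. PND 16 large, 1.57 ± 0.14 (adjusted p = 2.09e-05) in PND 40 vs. PND 16 small and 1.15 ± 0.13 (adjusted p = 6.55e-05) in PND 40 vs. PND 13, and none of these calls was lost under any setting. PND 16 large pools overlapped PND 13 pools, and the call in competent vs. non-competent oocytes (0.84 ± 0.27 (adjusted p = 0.0302)) was lost without any 1 of the PND 40 or PND 16 small pools (6 of the 12 fits without 1 pool) and without the 3 pools highest in granulosa markers (difference 1.00, adjusted p = 0.0946).

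Gtf2i stood at 22.3, 8.79 and 25.0 CPM (PND 13), 6.41, 16.4 and 5.10 CPM (PND 16 small), 4.99, 7.26 and 4.14 CPM (PND 16 large) and 2.96, 5.38 and 3.78 CPM (PND 40). The values of 22.3, 25.0 and 16.4 CPM came from the 3 pools with the highest granulosa marker sums (755, 871 and 932 CPM), and the other 9 pools lay between 2.96 and 8.79 CPM. The competence difference of -1.56 ± 0.38 (adjusted p = 0.00719) and the calls in PND 40 vs. PND 13 (-2.21 ± 0.50 (adjusted p = 0.00597)) and PND 16 large vs. PND 13 (-1.77 ± 0.49 (adjusted p = 0.0215)) were lost when these 3 pools were left out, where the competence difference was -0.51. Without them 8 members were called in competent vs. non-competent oocytes, 7 of which were among the 10 called with all pools. The calls of Gtf2a1, Polr2d, Gtf3c4, Polr3e, Polr3g and Taf1c were kept. Those of Gtf2i, Gtf2ird1 and either Polr1c or Gtf3c5 were lost. Gtf2ird2, the remaining family member, did not exceed 2.74 CPM and differed by -0.41 ± 0.37 (adjusted p = 0.437). The 3 genes are similar in sequence, and how reads shared between them were counted is not stated.

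Pol III genes that were called were all lower, never higher, and they fell into TFIIIC and the peripheral subunits of the enzyme. TFIIIC recognizes the internal promoter of tRNA genes, of which the B box is a part. Gtf3c4, its histone acetyltransferase subunit, stood at 37.3, 38.7 and 41.3 CPM (PND 13), 43.5, 20.1 and 19.9 CPM (PND 16 small), 13.1, 17.1 and 19.0 CPM (PND 16 large) and 11.7, 10.5 and 13.1 CPM (PND 40). Every competent pool was below every non-competent pool, and within PND 16 small replicate 1 was at the level of PND 13 while replicates 2 and 3 were near the PND 16 large pools. The difference was -1.25 ± 0.22 (adjusted p = 0.000823) in competent vs. non-competent oocytes, -1.73 ± 0.27 (adjusted p = 0.000489) in PND 40 vs. PND 13 and -1.25 ± 0.26 (adjusted p = 0.00495) in PND 16 large vs. PND 13. The first was called under every setting, and the last was lost without the 3 pools highest in granulosa markers (difference -1.24, adjusted p = 0.0526). In PND 40 vs. PND 16 small it was -1.24 ± 0.26 (adjusted p = 0.00403), a value that was smallest in size without PND 16 small replicate 1 (-0.76) but stayed called under every setting.

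Gtf3c5, the TFIIIC subunit that interacts with Gtf3c4 in the body of the complex, stood at 5.54, 8.17 and 8.06 CPM (PND 13), 6.07, 4.17 and 3.56 CPM (PND 16 small), 3.56, 4.42 and 3.54 CPM (PND 16 large) and 2.32, 3.38 and 2.76 CPM (PND 40). PND 16 small replicates 2 and 3 were inside the range of the competent pools, and the difference was -0.83 ± 0.24 (adjusted p = 0.0155). Without the 3 pools highest in granulosa markers, the competence call of either Gtf3c5 or Polr1c was lost, and the stability of each is not given. In PND 40 vs. PND 13 it was -1.36 ± 0.27 (adjusted p = 0.00210). The other TFIIIC subunits, which include the DNA-contacting Gtf3c1 and Gtf3c2, were not called. Gtf3c1 differed by 0.075 ± 0.079 (adjusted p = 0.503), Gtf3c2 by 0.044 ± 0.059 (adjusted p = 0.605) and Gtf3c6 by 0.074 ± 0.21 (adjusted p = 0.815). Gtf3c3 passed the adjusted p alone, at -0.35 ± 0.10 (adjusted p = 0.0149). Gtf3a, the 5S-specific TFIIIA, differed by 0.15 ± 0.16 (adjusted p = 0.488), although 37.9% of its exonic length overlaps Mtif3 on the opposite strand.

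Polr3e, a subunit peripheral to the catalytic core, stood at 42.8, 42.2 and 47.6 CPM (PND 13), 35.2, 31.8 and 47.1 CPM (PND 16 small), 19.9, 21.9 and 24.9 CPM (PND 16 large) and 19.3, 22.3 and 24.2 CPM (PND 40). The 6 competent pools lay between 19.3 and 24.9 CPM and the 6 non-competent pools between 31.8 and 47.6 CPM. The difference was -0.90 ± 0.11 (adjusted p = 8.41e-05), and it was called in all 4 pairwise comparisons between a competent and a non-competent cohort, from -0.77 in PND 16 large vs. PND 16 small to -1.01 in PND 40 vs. PND 13. None of these 5 calls was lost under any setting. The difference was -0.018 ± 0.15 (adjusted p = 0.964) in PND 40 vs. PND 16 large and -0.22 ± 0.15 (adjusted p = 0.462) in PND 16 small vs. PND 13.

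Polr3g and Polr3gl encode alternative forms of the same subunit, and Polr3g is known from undifferentiated cells. Polr3g stood at 5.78, 4.85 and 6.18 CPM (PND 13), 6.61, 2.75 and 4.69 CPM (PND 16 small), 2.54, 2.84 and 1.79 CPM (PND 16 large) and 0.815, 1.27 and 2.50 CPM (PND 40). The difference was -1.39 ± 0.30 (adjusted p = 0.00348), with 1 non-competent pool (PND 16 small replicate 2, 2.75 CPM) below the highest competent pool. In PND 16 large vs. PND 13 the call (-1.23 ± 0.40 (adjusted p = 0.0389)) was lost under 7 of 14 settings, whereas in PND 40 vs. PND 16 small (-1.60 ± 0.41 (adjusted p = 0.0102)) it was kept under all of them. Polr3gl stood at 2.96, 2.31 and 3.07 CPM (PND 13), 1.12, 2.75 and 2.97 CPM (PND 16 small), 1.88, 2.37 and 1.75 CPM (PND 16 large) and 1.59, 2.11 and 1.62 CPM (PND 40), a difference of -0.42 ± 0.26 (adjusted p = 0.235). Polr3g was called and its paralogue was not, and the difference between their changes was not tested.

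Polr3c, Polr3d, Polr3f and Polr3k, further subunits of Pol III, were not called: Polr3c differed by -0.17 ± 0.10 (adjusted p = 0.235), Polr3d by -0.37 ± 0.13 (adjusted p = 0.0398), Polr3f by -0.22 ± 0.12 (adjusted p = 0.161) and Polr3k by -0.18 ± 0.22 (adjusted p = 0.568) between competent and non-competent oocytes. Summed over the 17 genes, the Pol III level was 1243 ± 17.6 CPM (PND 13), 1347 ± 16.5 CPM (PND 16 small), 1282 ± 32.7 CPM (PND 16 large) and 1186 ± 9.81 CPM (PND 40). Polr3a, Gtf3c1 and Gtf3c2 carry most of this sum. The Pol II sum was 2676 ± 88.7 CPM (PND 13), 2864 ± 87.0 CPM (PND 16 small), 3082 ± 25.1 CPM (PND 16 large) and 3148 ± 69.6 CPM (PND 40), and all competent pools were above all non-competent pools. Genes already called higher weigh in this sum, such as Gtf2a1 (mean 211 CPM at PND 13 and 348 CPM at PND 40) and Taf3 (195 and 303 CPM). Polr2a went the other way (121 and 89.8 CPM), and 15 of the 41 Pol II genes tested were below 0 in competent vs. non-competent oocytes.

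The partners of the polymerases, 86 genes of 9 groups that the symbol rule does not reach, were examined in the same fit. In competent vs. non-competent oocytes 14 were called, all 14 lower, beside the background of 15.0%, of which 11.2% were lower and 3.78% higher. Of the 33 Mediator genes 2 were called (Med16 and Cdk19), of the 18 pausing and elongation genes 4, and of the 9 genes of TFIIIB, SNAPc and Maf1 2. None of the 5 TFIIH helicase and kinase genes was called. The median log2 fold change of the 86 was 0.071.

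In Pol I, the partners called in competent vs. non-competent oocytes were an activator and 2 of 3 subunits under older symbols. Ubtf, the factor that keeps ribosomal DNA open for Pol I, stood at 95.0, 99.0 and 110.1 CPM (PND 13), 84.9, 59.7 and 71.4 CPM (PND 16 small), 34.4, 51.9 and 40.9 CPM (PND 16 large) and 46.1, 43.0 and 45.6 CPM (PND 40). All competent pools were below all non-competent pools, a difference of -0.99 ± 0.14 (adjusted p = 0.000177) that was kept under every setting. Twistnb and Cd3eap, which encode Pol I subunits, were called lower, with differences of -0.96 ± 0.16 (adjusted p = 0.000531) and -0.99 ± 0.22 (adjusted p = 0.00391), and the third, Znrd1, was not called, at 0.085 ± 0.12 (adjusted p = 0.624). Rrn3, the initiation factor that carries Pol I to the promoter, was uncalled, at 154 ± 11.7 CPM in non-competent and 169.7 ± 7.64 CPM in competent oocytes (SD, n = 6) and a difference of 0.14 ± 0.061 (adjusted p = 0.0963). Ttf1, also a Pol I factor, was uncalled in this comparison, at 3.36 ± 0.969 CPM and 2.17 ± 0.489 CPM. In PND 16 large vs. PND 13, 2 of the 3 Pol I factors were called lower, beside 9.8% of all genes.

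Of the TBP family, Tbpl2, the oocyte form that pairs with TFIIA during oocyte growth, was called. Its level was 25.8, 22.9 and 28.0 CPM (PND 13), 30.5, 16.5 and 23.0 CPM (PND 16 small), 11.0, 10.4 and 15.4 CPM (PND 16 large) and 10.6, 15.6 and 17.0 CPM (PND 40). The lowest non-competent pool (PND 16 small replicate 2, 16.5 CPM) lay below the highest competent pool, and the difference of -0.87 ± 0.17 (adjusted p = 0.00139) was kept under every setting. Tbp, used by all 3 polymerases, was higher in every competent pool, at 85.3 ± 2.40 CPM compared with 72.8 ± 4.13 CPM (SD, n = 6), a difference of 0.23 ± 0.058 (adjusted p = 0.00866) that was short of 1.5-fold. Tbpl1 differed by 0.049 ± 0.17 (adjusted p = 0.858), and this sign turned without the 3 pools highest in granulosa markers (-0.17). Thus Gtf2a1 and Tbp were higher and Tbpl2 lower in the same oocytes.

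The factors that set Pol III initiation were less uniform. Brf1, the TFIIIB subunit for tRNA and 5S genes, differed by 0.019 ± 0.088 (adjusted p = 0.892), and its sign turned under total-count scaling (-0.018). Brf2, used at the U6 type of promoter, differed by 0.39 ± 0.11 (adjusted p = 0.0168), and Bdp1, common to both, by -0.46 ± 0.11 (adjusted p = 0.00569), in opposite directions and both below 1.5-fold. Maf1, the repressor of Pol III, stood at 17.2, 15.4 and 18.5 CPM (PND 13), 12.5, 15.8 and 16.1 CPM (PND 16 small), 10.3, 14.0 and 11.5 CPM (PND 16 large) and 6.82, 7.57 and 9.22 CPM (PND 40). It was called lower, at -0.69 ± 0.17 (adjusted p = 0.00677), with overlap between PND 16 large replicate 2 and PND 16 small replicate 1, and the call was lost without the 3 pools highest in granulosa markers (-0.56).

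In competent vs. non-competent oocytes, the changes called among Pol II pausing and elongation factors were all lower. PND 40 vs. PND 13 gave 7 called, 1 higher and 6 lower, beside 6.31% and 12.6% of all genes. The differences below are those of the competence comparison. Hexim1, the inhibitor that holds the elongation kinase P-TEFb, stood at 3.15, 1.99 and 3.52 CPM (PND 13), 2.72, 1.71 and 0.830 CPM (PND 16 small), 0.450, 0.868 and 0.597 CPM (PND 16 large) and 0.172, 0.279 and 0.110 CPM (PND 40), a difference of -2.48 ± 0.49 (adjusted p = 0.00173). The competent pools were at or below 0.868 CPM and 5 of 6 non-competent pools were above that value. Aff4, the scaffold of the super elongation complex that delivers P-TEFb, stood at 90.7, 70.8 and 109 CPM (PND 13), 96.6, 65.0 and 94.6 CPM (PND 16 small), 25.7, 32.9 and 33.5 CPM (PND 16 large) and 24.3, 33.6 and 31.9 CPM (PND 40). The pools were far apart, and the difference was -1.53 ± 0.13 (adjusted p = 1.20e-05). Cdk9, the kinase of P-TEFb, differed by -1.07 ± 0.12 (adjusted p = 3.79e-05) and Ell2, an elongation factor of the same complex, by -1.01 ± 0.13 (adjusted p = 0.000107). The other 14 of the 18 pausing and elongation genes were not called in this comparison. Of the 18, 9 were above 0 and 9 below 0, with a median of 0.018. Without the fold criterion 4 were higher and 6 lower, the 4 called genes among the lower. The higher ones included Nelfa, of the pausing factor NELF (0.45 ± 0.081 (adjusted p = 0.000960)), Supt5, of the pausing and elongation factor DSIF (0.41 ± 0.064 (adjusted p = 0.000373)), and Ell (0.29 ± 0.055 (adjusted p = 0.00128)). The NELF genes did not share a direction. Mean levels in non-competent and competent pools were 19.0 and 13.7 CPM for Nelfb, 44.9 and 38.5 CPM for Nelfcd, and 21.0 and 25.2 CPM for Nelfe. Of the cyclins that pair with Cdk9, Ccnt1 differed by 0.069 ± 0.13 (adjusted p = 0.722) and Ccnt2 by 0.18 ± 0.067 (adjusted p = 0.0492). Of the other called partners, Snapc2, of the complex for small nuclear RNA promoters, differed by -1.40, Tfam, the mitochondrial transcription factor, by -0.96, Med16 by -0.87, Cdk19 by -0.78 and Gpn3, which helps assemble Pol II, by -0.61.

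**Figure D5:**
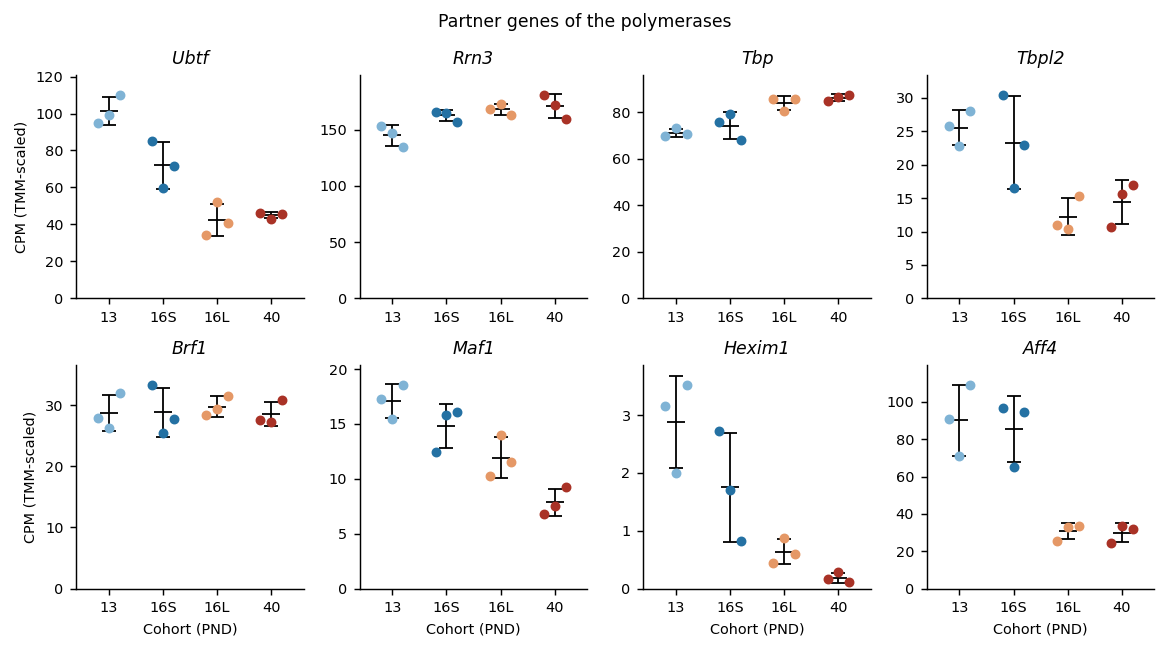
CPM in each pool for 8 partner genes, by cohort (16S and 16L, PND 16 small and large). Points are pools, bars show the mean ± SD of 3 pools, and each axis starts at 0. Ubtf, Tbpl2, Maf1, Hexim1 and Aff4 were lower in competent oocytes, and Rrn3, Tbp and Brf1 were not called.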

How the data were processed

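RNA was isolated by the authors from 12 pools of oocytes, 3 per cohort, depleted of ribosomal RNA, made into directional libraries and sequenced on a HiSeq. Raw read counts per gene and pool, not normalized, were deposited by the authors. The submitters' processing notes name FastQC, STAR, HTSeq, DESeq2, DESeq and HOMER and the build mm10, with no versions, and the annotation and the strand setting of the counting are not given in the sources used here. A deposited log2 version of the same counts was not used. Counts carried no molecular identifiers, so they hold more than counting error.

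Cohort and replicate number came from the sample labels. Genes were kept by filterByExpr (minimum count 10) and scaled by TMM in edgeR 4.0.16 (R 4.3.3), which left 13943. A robust quasi-likelihood model of the 4 cohorts gave the 6 pairwise comparisons, and a model of 6 competent and 6 non-competent pools gave the other. Benjamini-Hochberg adjustment of two-sided p-values covered all genes tested, and SE was taken as the size of the log2 fold change over the root of its F statistic. The fit was tested on simulated counts. Exon lengths, overlaps and gene coordinates come from GENCODE M21 (GRCm38), which covered 73 of 73 members. Pools of a cohort differed by more than sampling noise (chi-square per gene 9.17 to 50.6). The labels do not say whether pools came from separate litters, so p-values measure the spread between these pools. In the competence comparison, that spread also holds the differences between the cohorts of each group. Competence was assigned by cohort, so its p-values count pools and not cohorts as replicates.

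Named genes were, per comparison, the 3 called members with the largest change in each direction (mean of at least 1 CPM), the 2 largest subunits of each polymerase, paralogue pairs, the highest and lowest member per class by level per length, and chosen partners. Further members were named after their values were seen, and 1 member, which stays in the counts, medians and sums, is not reported here by name. The members, classes, partner and marker lists were chosen with earlier results of these data known. Alternatives were RLE scaling, total counts, no count filter, DESeq2 1.42.0, the replicate number as a block, no fold criterion, another set of cohorts in the model and leaving out each pool. Leaving out the 3 pools highest in granulosa markers was added after the data had been seen.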

Additional observations from a re-analysis of the deposited data

Results flagged for a closer look

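In groups of 6 pools, 78 groups of members and partners were examined for a pool far from the others (Dixon's test, of which about 1 in 20 is expected to be flagged by chance), and 2 were. Taf7l was at 0.239 CPM in PND 13 replicate 1, the highest of the non-competent pools, and at 0 in the other 5. Taf9 was at 17.7 CPM in the same pool, the lowest of the non-competent pools, and the other 5 lay between 21.2 and 22.6 CPM. Taf9 was not called in any comparison, and Taf7l was not tested.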

How the results depend on the processing

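Counts of called members moved mostly with the fold criterion. Without it, 26 members were called in PND 16 large vs. PND 13, 32 in PND 40 vs. PND 13, 12 in PND 16 large vs. PND 16 small, 26 in PND 40 vs. PND 16 small, 5 in PND 40 vs. PND 16 large and 31 (16 higher and 15 lower, where 30.7% of all genes passed) in competent vs. non-competent oocytes, together with 39 partners. DESeq2 called 1 member in PND 16 small vs. PND 13. With only the cohorts compared in the model, the count was 2 in PND 16 large vs. PND 16 small and 2 in PND 40 vs. PND 16 large. Without the 3 pools highest in granulosa markers, where PND 13 keeps 1 pool that is assumed to vary like the others, 5 members were called in PND 16 large vs. PND 13. As each pool was left out, the counts ranged from 0 to 4 (PND 16 small vs. PND 13, with 4 without PND 16 small replicate 1), 6 to 9 (PND 16 large vs. PND 13), 14 to 17 (PND 40 vs. PND 13), 2 to 7 (PND 16 large vs. PND 16 small), 9 to 12 (PND 40 vs. PND 16 small), 1 to 1 (PND 40 vs. PND 16 large), 9 to 10 (competent vs. non-competent) and 13 to 16 (partners).

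Brf1 turned sign under total counts (-0.018) and in some fits without 1 pool (-0.024 to 0.067), Polr3a under total counts (-0.026), without the granulosa-high pools (-0.038) and in some fits without 1 pool (-0.029 to 0.040), and Tbpl1 without the granulosa-high pools (-0.17) and in 1 fit without 1 pool (-0.070 to 0.18). Total-count scaling moved the median of all genes to -0.13 in PND 16 large vs. PND 13 and to -0.12 in PND 16 small vs. PND 13. Same-numbered pools shared only a number, with correlations of their deviations from -0.44 to 0.075, and with the replicate number as a block the counts in the order above were 0, 8, 14, 3, 10, 1, 10 and 14. Of single genes, the block removed the calls of Taf11 and Polr3g noted above. The cause of these changes was not tested. Low counts limit Polr2h, Polr2k, Polr2l, Gtf2ird2 and Hexim1.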
